A study of Mus musculus with 73 samples.

Results

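Extraembryonic ectoderm (ExE), the trophoblast tissue that adjoins the epiblast and contributes to the placenta, was compared between mouse embryos targeted at Eed and mouse embryos targeted at Rnf2. The libraries were chosen by the tissue and the targeted gene in the labels. They were 10 ExE libraries of Eed embryos and 5 of Rnf2 embryos, of 72 libraries with deposited values in the series. ExE of 7 wild-type embryos served only as a reference level. ExE of 4 more wild-type embryos, labelled as the reciprocal cross (CAST by BDF1), served only to choose the imprinted genes of the silent-allele share below.

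RNA came from the ExE of single embryos at embryonic day 6.5, and each library was 1 embryo per the labels. In the 3 groups compared the mother was BDF1, a hybrid of laboratory strains, and the father was CAST, a wild-derived strain, so reads over polymorphisms could be assigned to a parent. Zygotes were made by injecting sperm into eggs, and blastocysts were transferred to CD-1 females. For both targeted groups, Cas9 mRNA and a mixture of guide RNAs against several exons of the gene were injected into the zygotes. The protocols in the labels describe no such injection for the wild type. Cutting acts only from the zygote stage onward, the egg can still supply maternal protein, and the genotype of single embryos was not given in the sources used here. The Eed group held 4 female and 6 male embryos, the Rnf2 group 2 and 3, and the wild type 3 and 4. Visceral endoderm had been stripped from the tissue after enzyme treatment, per the labels.

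Polycomb proteins keep developmental genes silent. PRC2, which contains Eed, Suz12 and Ezh1 or Ezh2, methylates histone H3. PRC1, built on Rnf2 or its paralog Ring1, adds ubiquitin to histone H2A. Canonical PRC1 carries a Cbx protein that reads the mark of PRC2, whereas a variant PRC1 with Pcgf6 reaches germline genes by way of E2f6 and the E-box binding pair Mga and Max. In trophoblast, Polycomb also helps to silence paternal alleles of the Kcnq1 domain, and maternally inherited PRC2 marks underlie noncanonical imprinting, in which the maternal allele is silent.

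Depth was 2116969 to 3976031 reads over polymorphisms in the Eed libraries, 1847681 to 10263280 in the Rnf2 libraries and 2685835 to 3053690 in the wild type. A level is given in CPM, the reads of a gene scaled to the total of its library, as mean ± SD or as a range over embryos. Levels are compared within a gene and not between genes, since length and polymorphism differ. Expression was tested with edgeR's quasi-likelihood test at an adjusted p of 0.05, and log2 differences are Eed minus Rnf2 unless stated.

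The targeted genes were examined first. Eed (chromosome 7, 89954654 to 89981419, mm10) stood at 3.87 to 17.4 CPM in the Eed embryos, with a median of 7.60. It stood at 164, 90.6, 169, 153 and 157 CPM in Rnf2 embryos 2, 4, 5, 6 and 7, the order used for that group throughout, and at 103 to 248 in the wild type. All 10 Eed embryos lay below all others (log2 -4.26, SE 0.26, edgeR adjusted p 4.55e-09). The Eed reads that remained were 33.2% ± 9.43 (SD, n = 9) maternal, against 63.7% ± 2.96 (n = 5) in the Rnf2 group. Rnf2 (chromosome 1, 151469406 to 151500922, overlapping Gm36527) stood at 29.5, 22.4, 39.5, 62.7 and 21.9 CPM in the Rnf2 group. It stood at 36.4 to 72.7 in the Eed embryos and 21.4 to 65.9 in the wild type, so the groups overlapped. Rnf2 mRNA did not pass the test against the wild type (log2 -0.42, edgeR adjusted p 0.324) or against Eed (log2 0.56, SE 0.21, edgeR adjusted p 0.0765). Without Rnf2 embryo 6, the one with the most Rnf2 mRNA, the second of these passed (edgeR adjusted p 0.00863). The mRNA level thus does not bear out the label, and whether the protein was lost was not measured. The group is therefore called the libraries labelled Rnf2, or Rnf2 for short, and counts of calls are also given without embryos 2, 5 and 6, which held the most Rnf2 mRNA.

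The Eed embryos differed from the libraries labelled Rnf2 at many genes. Of 10374 autosomal genes tested, 966 (9.31%) were higher in Eed and 496 (4.78%) were higher in the libraries labelled Rnf2. Of the 966, 618 could also be tested against the wild type in both targeted groups. Among these, 316 were above the wild type in Eed and not called in Rnf2, 82 were above it in both, 77 were below it in Rnf2 and not called in Eed, and 128 were called in neither. Of the 496, 488 could be tested so. Among these, 233 were below the wild type in Eed and not called in Rnf2, 89 were above it in Rnf2 and not called in Eed, and 125 were called in neither. In 5 of the former and 2 of the latter Eed and Rnf2 moved in opposite directions from the wild type. In bulk tissue, fewer cells of a type and less RNA per cell cannot be told apart.

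**Figure D1:**
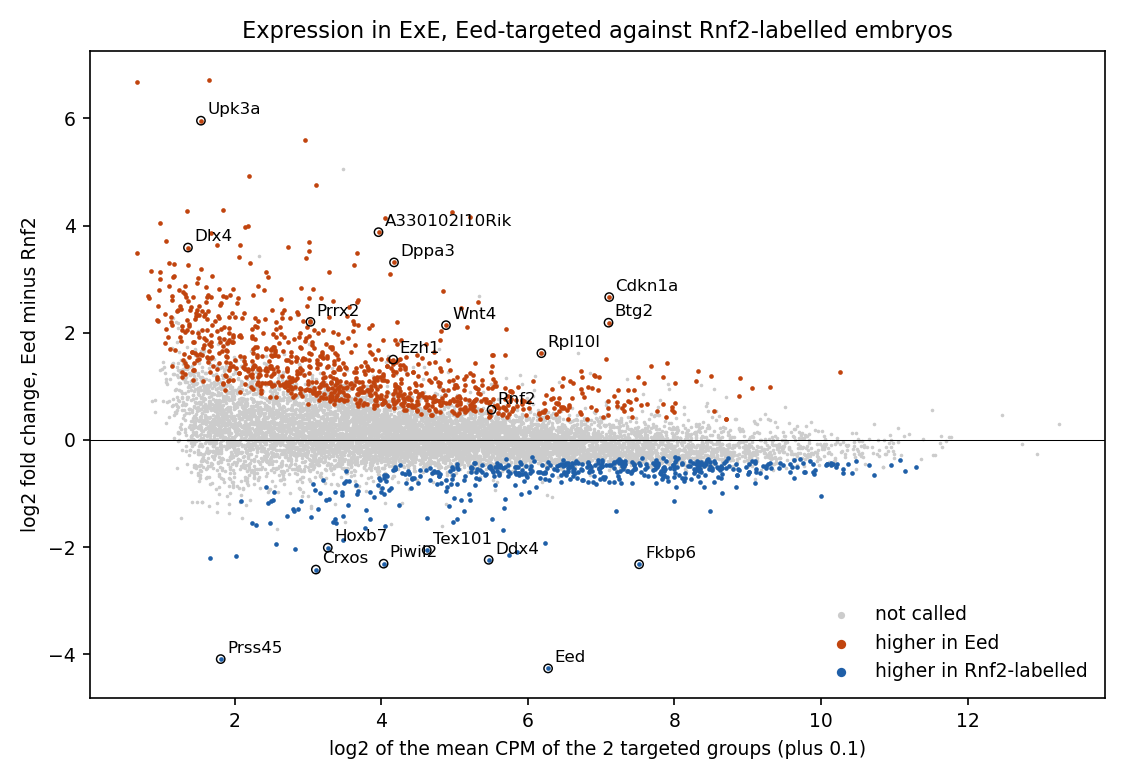
Each point is an autosomal gene, with the log2 mean CPM of Eed and Rnf2 (plus 0.1) on the x axis and the log2 difference, Eed minus Rnf2, on the y axis; coloured points passed the test, 966 above 0 and 496 below. Fkbp6, Ddx4, Piwil2 and Tex101 lie among the points well below 0.

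The number of differences depended on the embryos used. Among female embryos alone 1234 of 11121 genes tested were higher in Eed and 1044 in Rnf2, and among males alone 70 and 24 of 9987. Without Rnf2 embryos 2, 5 and 6 there were 103 and 31 of 11439, and without embryo 6 alone 625 and 292 of 10605.

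Against the wild type, 2216 of 9728 genes (22.8%) were higher and 1649 (17.0%) lower in Eed, and 1131 of 9203 (12.3%) were higher and 882 (9.58%) lower in Rnf2. Both comparisons used the same 7 wild-type libraries, so a gene called in both is not called on independent evidence. Of 9093 genes tested in all comparisons, 744 (8.18%) were higher and 539 (5.93%) lower than the wild type in both targeted groups without a call between them. These are called shared below. The calls of Rnf2 against the wild type and the shared genes depended on the embryos and terms used. Without Rnf2 embryos 2, 5 and 6 the 2013 calls of Rnf2 became 485 and the 1283 shared genes 409, and among females alone 118 and 71. With the summed level of visceral endoderm markers as a term they were 193 and 98, and with embryo number as a replicate block 517 and 365. A gene near 0 in the wild type passed the filter on low counts only through a group where it was higher. Counts against the wild type over the tested members of a list, here and below, thus describe those members. They do not support a direction of the list. The same filter was used between Eed and Rnf2, so counts of that comparison by list are limited in the same way.

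Among genes with a mean of 5 CPM or more in the higher group and no overlap between Eed and Rnf2, the largest difference on the Eed side was that of Upk3a, which encodes a membrane protein of the urothelium. It stood at 1.18 to 11.5 CPM in Eed, 0 to 0.541 in Rnf2 and 0 in every wild-type library, which makes it at least 5.29-fold higher in Eed than a floor of 3 reads in a wild-type library. A330102I10Rik, a transcript on chromosome 13, stood at 8.50 to 44.8 CPM in Eed, 1.22, 3.22, 1.08, 0.976 and 2.43 in Rnf2 and 0 to 2.61 in the wild type (log2 3.88, SE 0.41, edgeR adjusted p 1.23e-05). Dlx4os, which overlaps the homeobox gene Dlx4 and cannot be separated from it without strand, stood at 23.3 ± 15.5 CPM in Eed, 1.97 ± 1.01 in Rnf2 and 0 in the wild type. The gut hormone gene Pyy (log2 3.99), the serpin gene Serpinb5 (3.52), the neural adhesion gene Ncam1 (3.41), Dpysl5 of growing axons (3.61), Gm32585 (3.97) and Cyp4v3 (3.85) were also higher in Eed. Vwa5a stood at 6.73 ± 3.55 CPM in Eed, 0.247 ± 0.183 in Rnf2 and 3.13 ± 1.35 in the wild type, so the low group was Rnf2. Without Rnf2 embryos 2, 5 and 6 the calls of Dlx4os and Ncam1 were lost (edgeR adjusted p 0.0759 and 0.148), and in males alone that of Pyy (edgeR adjusted p 0.0587).

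On the other side, 4 of the 10 genes with the largest differences under the same limits belonged to the germline list below, and Eed itself was another. Prss45, a serine protease gene, stood at 0.366 ± 0.504 CPM in Eed, 6.44 ± 1.80 in Rnf2 and 4.28 ± 2.79 in the wild type, so the low group was Eed. Crxos, a homeobox gene of the early embryo, stood at 2.73 ± 2.06 CPM in Eed, 14.3 ± 3.89 in Rnf2 and 4.91 ± 3.38 in the wild type. Kcns1, a potassium channel subunit gene, stood at 1.53 ± 0.847 CPM in Eed, 6.40 ± 3.01 in Rnf2 and 0.761 ± 0.800 in the wild type. Mzb1, a chaperone of the endoplasmic reticulum, stood at 2.57 ± 1.89 CPM in Eed, 9.02 ± 4.34 in Rnf2 and 10.5 ± 6.04 in the wild type. The call of Crxos was lost in males alone (edgeR adjusted p 0.0542). Those of Kcns1 and Mzb1 were lost in males alone (edgeR adjusted p 0.106 and 0.141) and without Rnf2 embryos 2, 5 and 6 (0.0524 and 0.264).

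Germline genes that differed were mostly higher in the libraries labelled Rnf2. Of 76 listed genes of meiosis, the piRNA pathway and germ-cell identity, 73 were autosomal in the table and 37 were tested. Of these, 14 were higher in Rnf2 and 3 in Eed, against 4.78% and 9.31% of all genes tested. Their median log2 difference was -0.58, against 0.05 over all genes tested. Fkbp6, a co-chaperone of piRNA biogenesis (chromosome 5, 135291704 to 135351810), stood at 269, 211, 359, 285 and 385 CPM in Rnf2, 40.6 to 92.1 in Eed and 33.3 to 94.2 in the wild type. All Rnf2 embryos lay above all others, and Eed overlapped the wild type. The difference was 4.99-fold (log2 -2.32, 95% interval -2.68 to -1.96, edgeR adjusted p 4.05e-08).

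Piwil2, a Piwi protein that binds piRNAs (chromosome 14, 70372477 to 70436916), stood at 27.2, 20.6, 28.1, 31.8 and 25.9 CPM in Rnf2, 3.42 to 9.20 in Eed and 0.667 to 5.72 in the wild type (log2 -2.31, SE 0.19, edgeR adjusted p 1.31e-07). Ddx4, the Vasa RNA helicase of germ cells (chromosome 13, 112598333 to 112652633), stood at 76.8, 28.9, 109, 62.1 and 81.7 CPM in Rnf2, 6.26 to 22.3 in Eed and 0.715 to 10.8 in the wild type (log2 -2.24, SE 0.23, edgeR adjusted p 6.28e-06). Against the wild type Ddx4 rose in both, by a log2 difference of 1.20 in Eed and 3.43 in Rnf2. Tex101, a surface protein of male germ cells (chromosome 7, 24668012 to 24672050), stood at 34.4, 19.3, 57.4, 39.8 and 45.2 CPM in Rnf2, 3.91 to 17.1 in Eed and 1.67 to 11.9 in the wild type (log2 -2.06, SE 0.27, edgeR adjusted p 8.97e-05). For each of these genes every Rnf2 embryo lay above every other embryo. Fkbp6, Piwil2, Ddx4 and Tex101 passed the test in each of 27 alternatives, those without single embryos and without Rnf2 embryos 2, 5 and 6 included.

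Slc25a31, a mitochondrial ATP carrier of the testis, was chosen after its values were seen. It stood at 31.1 ± 8.67 CPM in Eed, 71.4 ± 23.0 in Rnf2 and 5.57 ± 1.74 in the wild type, so both targeted groups were above the wild type without overlap, and Rnf2 was 2.41-fold above Eed (edgeR adjusted p 0.000953). Of the germline list, 4 of 40 were higher in Eed and 16 in Rnf2 among females alone, against 1234 and 1044 of all 11121 genes. Among males alone they were 2 and 6 of 35, against 70 and 24 of 9987. Without Rnf2 embryos 2, 5 and 6 they were 1 and 5 of 40, against 103 and 31 of 11439.

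Other germline genes were shared. Sycp1, the transverse filament of the synaptonemal complex (chromosome 3, 102818499 to 102936100), stood at 73.9 to 165 CPM in Eed, 95.5, 144, 144, 93.3 and 148 in Rnf2 and 8.19 to 27.9 in the wild type. Both targeted groups lay above the wild type and overlapped each other (log2 -0.18, 95% interval -0.52 to 0.17). Tdrkh, a Tudor protein of the piRNA pathway that overlaps Oaz3, stood at 18.1 ± 4.76 CPM in Eed, 25.3 ± 4.53 in Rnf2 and 3.09 ± 1.26 in the wild type. Dmc1, the recombinase of meiosis, stood at 15.4 ± 3.63 CPM in Eed, 20.3 ± 5.23 in Rnf2 and 4.15 ± 1.58 in the wild type. Tuba3b, a testis tubulin whose near-identical copy Tuba3a makes its reads uncertain, stood at 10.4 ± 6.08 CPM in Eed, 14.3 ± 15.9 in Rnf2 and 1.70 ± 0.825 in the wild type. In the whole list 17 of 32 were higher and 5 lower than the wild type in Eed, against 22.8% and 17.0% of all genes tested. In Rnf2 16 of 30 were higher and 1 lower, against 12.3% and 9.58%. Shared and higher were 6 of 28, against 8.18%.

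The 3 germline genes higher in Eed were Dppa3, Rpl10l and Tex15. These 3 of 37 are near the share over all genes tested, 9.31% higher in Eed. Dppa3, which protects DNA methylation in the zygote (chromosome 6, 122626424 to 122630271), stood at 10.6 to 79.1 CPM in Eed, 2.24, 4.09, 0.541, 2.56 and 5.43 in Rnf2 and 0 to 5.38 in the wild type. Every Eed embryo lay above every other embryo (log2 3.31, SE 0.55, edgeR adjusted p 0.00123), and the call was lost without Rnf2 embryos 2, 5 and 6 (edgeR adjusted p 0.118). Rpl10l, a testis retrogene close in sequence to its parent Rpl10, which makes its reads uncertain, stood at 112 ± 41.5 CPM in Eed, 33.8 ± 5.02 in Rnf2 and 37.6 ± 9.39 in the wild type. Tex15, which acts in piRNA-directed silencing, stood at 61.2 ± 13.2 CPM in Eed, 29.8 ± 5.79 in Rnf2 and 33.4 ± 8.91 in the wild type, and its call was lost in each sex alone and without Rnf2 embryos 2, 5 and 6.

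**Figure D2:**
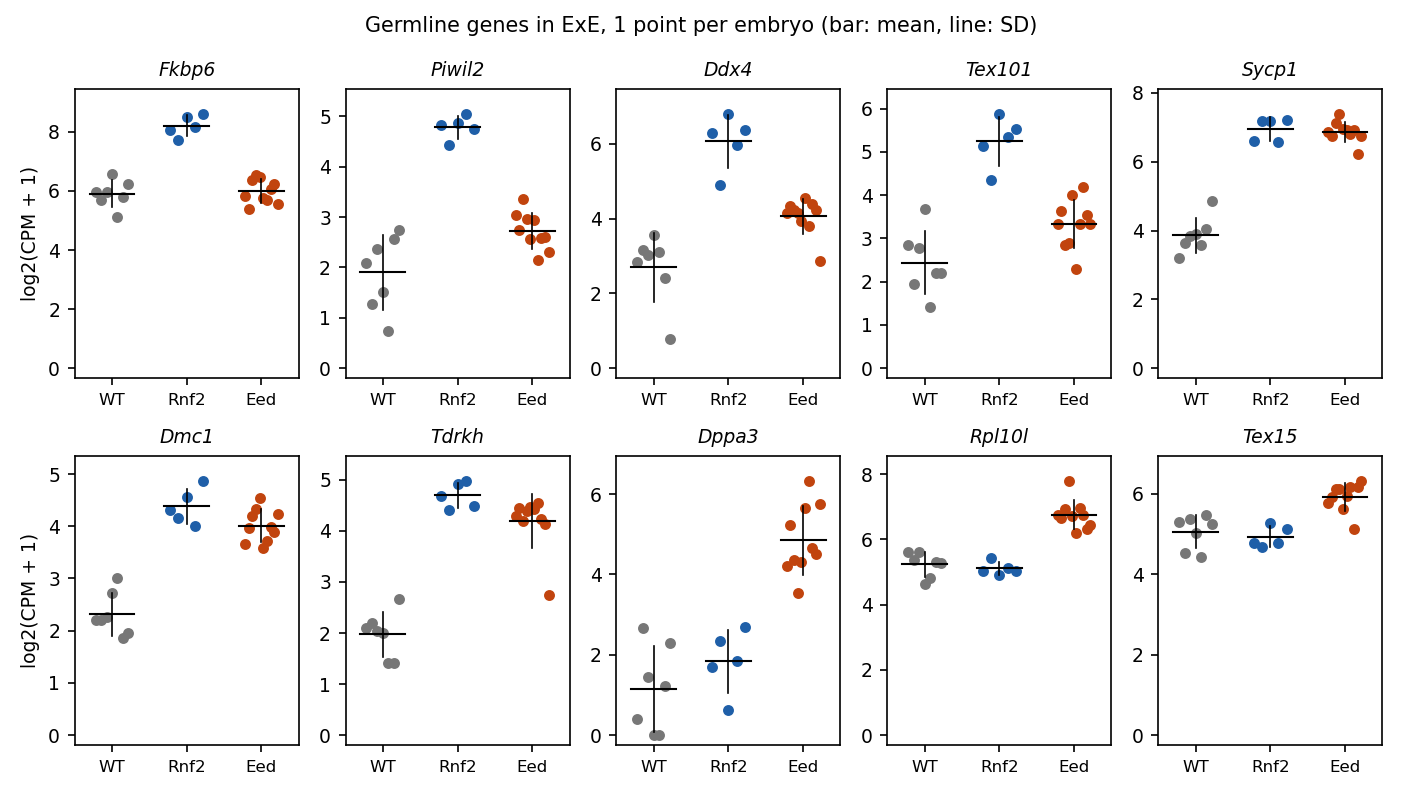
The y axis is log2 of CPM plus 1, each point is 1 embryo, bars are group means and lines are SDs. Fkbp6, Piwil2, Ddx4 and Tex101 are highest in all 5 libraries labelled Rnf2, Sycp1, Dmc1 and Tdrkh are high in both targeted groups, and Dppa3 and Rpl10l are highest in Eed.

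The sequences before 7 of these genes are shown as examples of the 3 patterns: higher in Rnf2 (Fkbp6, Ddx4, Slc25a31 and Tex101), shared (Sycp1 and Dmc1) and higher in Eed (Rpl10l). Slc25a31 was added beyond the rule for named genes, so no share of genes with a motif can be read from these 7. Each is the 150 bases before the RefSeq start on the gene's strand, from build GRCm38.p6, with the E-box CACGTG in capitals. The start of RefSeq can differ from the end of the gene in the authors' table, and for Fkbp6 and Ddx4 the window lies inside the span given above. RefSeq held 2 starts for Fkbp6, and the more 5' one is shown.
Fkbp6, chr5:135350045-135350194, minus strand: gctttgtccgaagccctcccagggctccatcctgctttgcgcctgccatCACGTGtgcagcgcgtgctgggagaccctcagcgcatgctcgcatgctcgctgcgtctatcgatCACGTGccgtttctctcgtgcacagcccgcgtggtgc
Ddx4, chr13:112652311-112652460, minus strand: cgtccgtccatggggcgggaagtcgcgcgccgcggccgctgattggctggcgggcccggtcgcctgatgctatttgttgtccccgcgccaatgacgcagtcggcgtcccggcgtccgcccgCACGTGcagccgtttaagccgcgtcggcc
Slc25a31, chr3:40708721-40708870, plus strand: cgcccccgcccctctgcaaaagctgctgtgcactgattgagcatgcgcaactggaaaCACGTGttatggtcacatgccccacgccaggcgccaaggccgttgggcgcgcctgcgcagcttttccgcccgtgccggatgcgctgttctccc
Tex101, chr7:24672051-24672200, minus strand: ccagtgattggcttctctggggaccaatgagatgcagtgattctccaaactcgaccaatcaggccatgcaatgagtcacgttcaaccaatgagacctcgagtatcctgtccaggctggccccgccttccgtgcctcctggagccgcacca
Sycp1, chr3:102936101-102936250, minus strand: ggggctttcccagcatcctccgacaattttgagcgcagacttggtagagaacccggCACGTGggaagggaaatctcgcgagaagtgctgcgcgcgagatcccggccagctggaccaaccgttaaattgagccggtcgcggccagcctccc
Dmc1, chr15:79605110-79605259, minus strand: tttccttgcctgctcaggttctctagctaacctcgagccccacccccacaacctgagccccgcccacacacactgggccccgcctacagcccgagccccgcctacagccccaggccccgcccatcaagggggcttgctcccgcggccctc
Rpl10l, chr12:66284402-66284551, minus strand: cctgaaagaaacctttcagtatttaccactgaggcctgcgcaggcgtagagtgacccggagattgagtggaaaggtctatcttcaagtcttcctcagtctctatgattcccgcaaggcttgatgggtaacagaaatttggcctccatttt
CACGTG is its own reverse complement, so 1 search covers both strands. It occurred 2 times before Fkbp6, 1 time before each of Ddx4, Slc25a31 and Sycp1, and not in the windows of Tex101, Dmc1 and Rpl10l. Among windows not shown, those of the shared genes Tdrkh and Tuba3b lacked it. Of the other genes higher in Rnf2, Stk31 and Tdrd1 held it, and Syce1, Hormad2, Tuba3a and Zfp42 did not. Among 27025 RefSeq genes 4.92% held it before any of their starts. Of the 14 listed genes higher in Rnf2, 10 had an entry and 5 of these held it, against 5 of 18 not called and 3 of 34 not tested. A match describes letters, and binding was not measured.

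Fkbp6 was read mainly from the paternal allele in the wild type, and it belongs to the list of noncanonically imprinted genes. Its maternal share was 4.99% ± 3.47 in the wild type, 9.40% ± 6.26 in Eed and 21.6% ± 10.9 in Rnf2. Its paternal reads stood at 58.3 CPM in the wild type, 58.6 in Eed and 234 in Rnf2, and its maternal reads at 2.91, 6.32 and 67.3. The Rnf2 group was thus higher on both alleles. The allelic ratio of Fkbp6 passed the test between Rnf2 and the wild type (edgeR adjusted p 0.0111) and did not pass between Eed and Rnf2 (edgeR adjusted p 0.287).

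Listed developmental transcription factors are classical Polycomb targets. The table held 155 autosomal members, of which 30 were tested. Of these 8 were higher in Eed and 1 in Rnf2, against 9.31% and 4.78% of all genes tested, with a median log2 difference of 0.55. A gene near 0 in Eed or in Rnf2 passed the filter on low counts only through the other group. These counts thus describe the tested members and do not support a direction of the list. Dlx4, a homeobox factor that overlaps Dlx4os, stood at 2.36 to 8.38 CPM in Eed, 0.408, 0.390, 0, 0.366 and 0.286 in Rnf2 and 0 in the wild type (log2 3.59, SE 0.44, edgeR adjusted p 4.03e-05). Prrx2, a homeobox factor of mesenchyme, stood at 7.96 to 23.6 CPM in Eed, 2.14, 2.83, 1.62, 2.93 and 3.57 in Rnf2 and 0 to 1.86 in the wild type (log2 2.20, SE 0.29, edgeR adjusted p 8.76e-05). In both genes every Eed embryo lay above every other embryo, and both calls held in every alternative run. Sox9, a cartilage and gonad factor, stood at 3.40 ± 1.54 CPM in Eed and 0.816 ± 0.467 in Rnf2, and its call was lost without Rnf2 embryos 2, 5 and 6 (edgeR adjusted p 0.0954). The gene higher in Rnf2 was Irx2, at 25.2 ± 9.91 CPM in Eed, 65.8 ± 32.2 in Rnf2 and 63.5 ± 39.2 in the wild type, and its call was lost in males alone (edgeR adjusted p 0.116).

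Relative to the wild type 15 of the 155 listed factors were higher in Eed, where 21 were tested, and 9 in Rnf2, where 18 were tested. Over all genes tested these shares were 22.8% and 12.3%. Dlx4, at 0 in every wild-type library, passed the filter on low counts only through Eed. Of the listed factors tested in all comparisons 6 of 17 were shared and higher, against 8.18% of all genes. Six2, a factor of kidney progenitors, stood at 14.4 ± 6.57 CPM in Eed, 21.5 ± 8.20 in Rnf2 and 1.21 ± 1.05 in the wild type. Nkx2-9, a factor of the ventral neural tube, stood at 20.8 ± 14.3 CPM in Eed, 13.1 ± 9.20 in Rnf2 and 0.347 ± 0.346 in the wild type. Irx4 and Wt1, factors of heart and gonad, were also shared. Between Eed and Rnf2, 7 of 39 were higher in Eed and 7 in Rnf2 among females alone, against 1234 and 1044 of all 11121 genes. Among males alone they were 3 and 0 of 26, against 70 and 24 of 9987. Without Rnf2 embryos 2, 5 and 6 they were 3 and 1 of 38, against 103 and 31 of 11439.

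Hox genes, which pattern the body axis, were nearly all too low to test. Of 35 in the table, 3 were tested and 2 were higher in Rnf2, against 4.78% of all genes tested. Hoxb7 (chromosome 11, 96286646 to 96290163) stood at 17.0, 10.1, 17.9, 13.2 and 17.4 CPM in Rnf2, 0.967 to 8.40 in Eed and 0 in all 7 wild-type libraries (log2 -2.01, SE 0.37, edgeR adjusted p 0.00149). The 3 groups did not overlap, and the level was at least 14.6-fold higher in Rnf2 and at least 3.84-fold higher in Eed than a floor of 3 reads in a wild-type library. The call was lost in males alone (edgeR adjusted p 0.0823) and without Rnf2 embryos 2, 5 and 6 (edgeR adjusted p 0.0863). Hoxd13 stood at 3.00 ± 2.60 CPM in Eed, 7.96 ± 2.82 in Rnf2 and 0.102 ± 0.270 in the wild type (edgeR adjusted p 0.0345), a call that 10 of 27 alternatives did not keep, among them those without any 1 of Rnf2 embryos 2, 5, 6 and 7 or any 1 of Eed embryos 3, 5 and 6.

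Cell cycle inhibitors and p53 targets that passed the test were higher in Eed. Of 17 tested, 4 were higher in Eed and 0 in Rnf2, against 9.31% and 4.78% of all genes tested, with a median log2 difference of 0.54. Cdkn1a, the inhibitor p21 (chromosome 17, 29090979 to 29100722), stood at 65.0 to 590.1 CPM in Eed with a median of 121, at 41.6, 21.4, 69.3, 25.1 and 21.4 in Rnf2 and at 2.96 to 14.0 in the wild type. Both targeted groups lay above the wild type, and they overlapped each other (log2 2.67, SE 0.64, edgeR adjusted p 0.0138). Btg2, an antiproliferative gene, stood at 76.3 to 454 CPM in Eed, 58.7, 31.3, 64.4, 43.3 and 35.9 in Rnf2 and 12.8 to 26.8 in the wild type, with no overlap between any of the groups (log2 2.19, SE 0.44, edgeR adjusted p 0.00439). Bax, an effector of apoptosis, stood at 453 ± 68.2 CPM in Eed, 289.6 ± 40.5 in Rnf2 and 219 ± 52.6 in the wild type, and Fas, a death receptor, at 3.83 ± 2.63 CPM in Eed, 0.428 ± 0.482 in Rnf2 and 0 in the wild type.

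Within the Eed group, Cdkn1a and Btg2 differed by sex. Cdkn1a stood at 314 to 590.1 CPM in the 4 Eed females and 65.0 to 122 in the 6 Eed males, and at 21.4 to 25.1 in the 2 Rnf2 females and 21.4 to 69.3 in the 3 Rnf2 males. Btg2 stood at 312 to 454 and 76.3 to 184 in Eed females and males. The tests of sex given next were chosen after seeing the data and use the same values. Of 10296 genes, 17 were higher and 1 lower in Eed females, among them Cdkn1a (log2 2.15, edgeR adjusted p 0.00142), Btg2 (1.54, edgeR adjusted p 0.0190) and the cyclin gene Ccng1 (1.18, edgeR adjusted p 0.0391). A test of whether the sex difference itself differed between Eed and Rnf2 did not pass for Cdkn1a (log2 3.05, edgeR adjusted p 0.0550) or Btg2 (1.93, edgeR adjusted p 0.251). Of the inhibitors and p53 targets, 9 of 18 were higher in Eed and 0 in Rnf2 among females alone, against 1234 and 1044 of all 11121 genes. Among males alone they were 0 and 0 of 16, against 70 and 24 of 9987. Without Rnf2 embryos 2, 5 and 6 they were 0 and 0 of 18, against 103 and 31 of 11439.

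**Figure D3:**
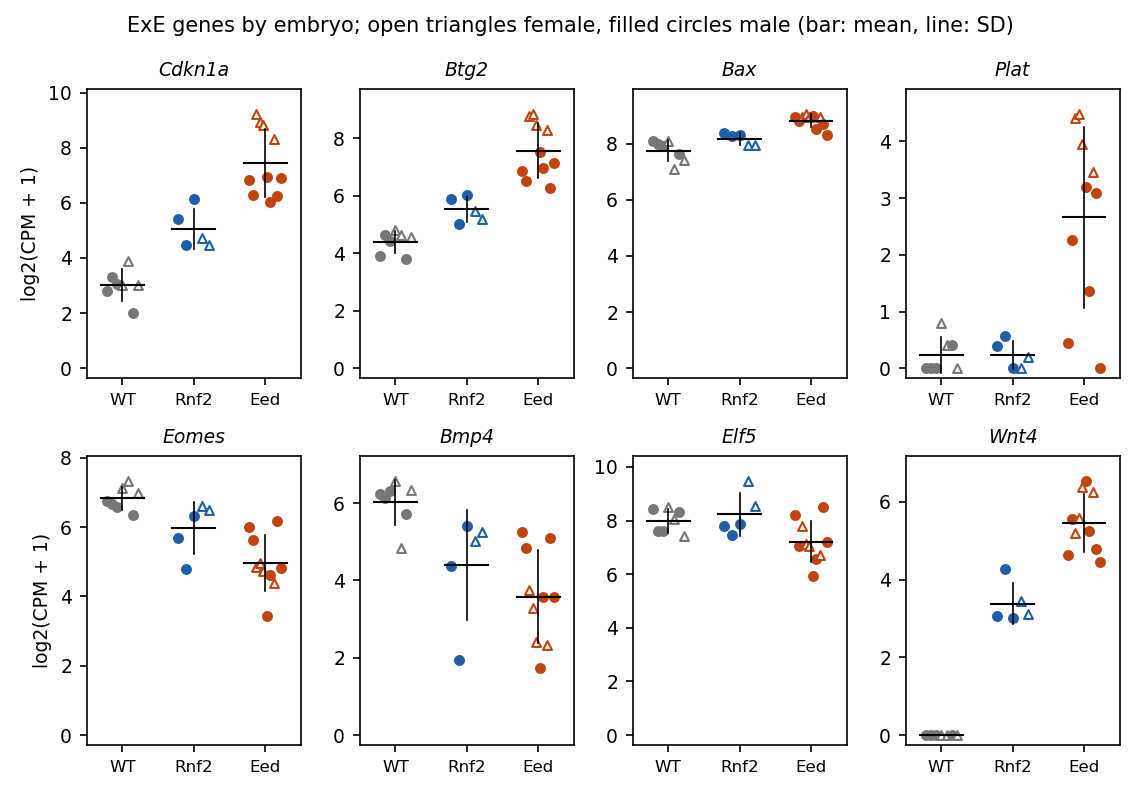
The y axis is log2 of CPM plus 1, each point is 1 embryo, open triangles are females and filled circles males, bars are group means and lines are SDs. For Cdkn1a and Btg2 the 4 Eed females lie above the 6 Eed males, and for Bax these overlap.

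Compared with the wild type, 12 of 14 were higher in Eed and 5 of 14 in Rnf2, against 22.8% and 12.3% of all genes tested. The 3 shared ones were Sesn2, a stress sensor, at 13.04 ± 10.3 CPM in Eed, 8.62 ± 4.16 in Rnf2 and 3.03 ± 1.34 in the wild type, Ccng1 at 249.9 ± 125 CPM in Eed, 129 ± 44.2 in Rnf2 and 71.1 ± 19.05 in the wild type, and the death receptor Tnfrsf10b at 36.3 ± 8.63 CPM in Eed, 32.4 ± 6.46 in Rnf2 and 20.7 ± 4.29 in the wild type. In Rnf2, the call of Ccng1 was lost without Rnf2 embryo 5 and that of Tnfrsf10b without Rnf2 embryo 5 or wild-type embryo 3.

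Genes of ExE and trophoblast stem cells were mostly lower in Eed where they differed. Of 22 tested, 4 were higher in Rnf2 and 1 in Eed, against 4.78% and 9.31% of all genes tested. Their median log2 difference was -0.52, against 0.05 over all genes tested. Both shares cover few genes, and whether they differ from those of all genes was not tested. Eomes, a T-box factor of trophoblast stem cells, stood at 9.77 to 71.2 CPM in Eed with a median of 27.5, at 49.9, 26.8, 79.0, 97.4 and 89.3 in Rnf2 and at 80.3 to 159 in the wild type. Eed lay below the wild type without overlap, and Eed and Rnf2 overlapped (log2 -1.10, edgeR adjusted p 0.0438). Elf5, which maintains the trophoblast fate, stood at 59.4 to 359 CPM in Eed, 223, 173, 234, 708 and 374 in Rnf2 and 171 to 363 in the wild type, with all groups overlapping (log2 -1.14, edgeR adjusted p 0.0424). The surface protein gene Ly6a stood at 21.0 ± 12.9 CPM in Eed, 86.3 ± 73.9 in Rnf2 and 41.8 ± 17.8 in the wild type, and Ddah1 at 287 ± 96.8 CPM in Eed, 459 ± 107 in Rnf2 and 638 ± 90.3 in the wild type. Pglyrp1, higher in Eed, stood at 13.7 ± 5.73 CPM in Eed, 5.96 ± 3.18 in Rnf2 and 13.8 ± 4.80 in the wild type.

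These calls depended on single libraries. The call of Eomes was lost in 14 of 27 alternatives, among them those without any 1 of Rnf2 embryos 2, 5, 6 and 7 or any 1 of Eed embryos 3, 4, 5, 7, 8 and 10. That of Elf5 was lost in 16 of 27, among them those without any 1 of Rnf2 embryos 6 and 7 or any 1 of Eed embryos 2, 3, 4, 5, 7, 8 and 10, that of Pglyrp1 in 16 of 27, among them those without any 1 of Rnf2 embryos 2, 4, 5 and 6 or any 1 of Eed embryos 1, 2, 3, 5, 7 and 10, and that of Ddah1 without any 1 of Rnf2 embryos 6 and 7. Of this list, 1 of 24 was higher in Eed and 13 in Rnf2 among females alone, against 1234 and 1044 of all 11121 genes. Among males alone they were 0 and 0 of 23, against 70 and 24 of 9987. Without Rnf2 embryos 2, 5 and 6 they were 0 and 0 of 25, against 103 and 31 of 11439.

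Compared with the wild type, 12 of 23 stem genes were lower in Eed and 8 of 22 in Rnf2, against 17.0% and 9.58% of all genes tested. Bmp4, the signal of ExE to the epiblast, was shared, at 2.34 to 37.2 CPM in Eed, 19.6, 2.83, 41.7, 31.2 and 37.2 in Rnf2 and 27.7 to 93.8 in the wild type. Fgfr2, the receptor that maintains trophoblast stem cells, stood at 52.9 ± 15.6 CPM in Eed, 69.9 ± 15.3 in Rnf2 and 108 ± 34.5 in the wild type. Lifr and Bmp8b were also lower and Cdh3 higher in both. In Rnf2 the call of Bmp4 was lost without any 1 of Rnf2 embryos 2 and 6 or wild-type embryo 4 and that of Fgfr2 without any 1 of Rnf2 embryos 2 and 4. In Rnf2 that of Cdh3 was lost without any 1 of Rnf2 embryos 2 and 4 and that of Bmp8b without any 1 of Rnf2 embryos 2, 4, 5, 6 and 7 or any 1 of wild-type embryos 1, 3, 4, 6, 7 and 8. In Eed that of Bmp8b was lost without wild-type embryo 6 and that of Lifr without Eed embryo 5 or any 1 of wild-type embryos 6 and 8. The summed level of the 26 listed genes was 855 to 1689 CPM in Eed, 1302 to 2332 in Rnf2 and 1692 to 2693 in the wild type, so the tissue's own markers were present in every library.

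Genes of trophoblast differentiation were followed next. Of 19 tested, 4 were higher in Eed and 1 in Rnf2, against 9.31% and 4.78% of all genes tested, with a median log2 difference of 0.89. Both shares cover few genes, and whether they differ from those of all genes was not tested. Dlx3, a homeobox factor of the labyrinth, stood at 17.1 to 79.3 CPM in Eed, 10.6, 30.5, 8.12, 17.4 and 8.72 in Rnf2 and 0 to 10.2 in the wild type (edgeR adjusted p 0.0274, and over 0.05 without any 1 of Rnf2 embryos 2, 5, 6 and 7). Plet1, a surface protein of early trophoblast, stood at 673 ± 323 CPM in Eed, 281 ± 70.6 in Rnf2 and 506 ± 203 in the wild type, and the hypoxia factor Epas1 at 14.3 ± 5.77 CPM in Eed, 7.05 ± 3.10 in Rnf2 and 4.00 ± 1.23 in the wild type. Serpinb9g was also higher in Eed, and Fosl1, a factor of giant cells, was higher in Rnf2. The calls of Epas1, Serpinb9g and Fosl1 were each lost in 15 of 27, 15 of 26 and 18 of 27 alternatives, among them for Epas1 those without any 1 of Rnf2 embryos 2, 4, 5 and 7 or any 1 of Eed embryos 1, 4, 5, 6 and 8, for Serpinb9g those without any 1 of Rnf2 embryos 2, 4, 5, 6 and 7 or any 1 of Eed embryos 3, 4, 5, 6 and 10 and for Fosl1 those without any 1 of Rnf2 embryos 2, 5, 6 and 7 or any 1 of Eed embryos 2, 4, 5, 6, 7, 8 and 10. Of this list, 11 of 23 were higher in Eed and 1 in Rnf2 among females alone, against 1234 and 1044 of all 11121 genes. Among males alone they were 0 and 0 of 17, against 70 and 24 of 9987. Without Rnf2 embryos 2, 5 and 6 they were 0 and 0 of 23, against 103 and 31 of 11439.

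Shared genes of this list included Krt7, a keratin of trophoblast, at 64.6 ± 36.8 CPM in Eed, 38.5 ± 12.1 in Rnf2 and 7.41 ± 6.45 in the wild type, and Peg10, a retrotransposon-derived gene needed in the placenta, at 92.0 ± 55.0 CPM in Eed, 43.6 ± 18.5 in Rnf2 and 17.3 ± 3.19 in the wild type. In all 13 of 18 were higher than the wild type in Eed and 7 of 17 in Rnf2, against 22.8% and 12.3% of all genes tested.

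**Figure D4:**
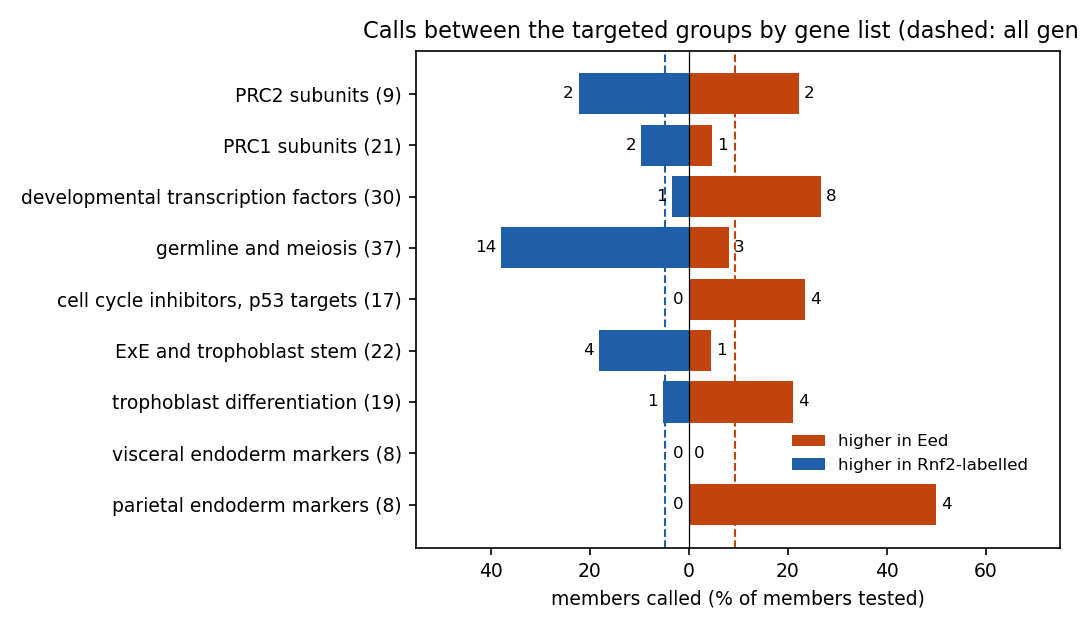
Bars give the percentage of each list's tested members (number in brackets) called higher in Eed, to the right, and higher in the libraries labelled Rnf2, to the left, with counts at the ends. Dashed lines mark the percentages over all genes tested, 9.31% and 4.78%. Bars past the left line are those of germline genes (14 of 37), PRC2 subunits (2 of 9), ExE and trophoblast stem genes (4 of 22), PRC1 subunits (2 of 21) and trophoblast differentiation (1 of 19).

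Markers of other tissues were followed beside these results, and their part in them was not tested. Visceral endoderm markers gave 0 calls between Eed and Rnf2 of 8 tested. Against the wild type, 5 of 8 were higher and 0 lower in Eed, with a median log2 difference of 1.07. In Rnf2, 3 of 5 were higher and 0 lower, with a median of 0.91. Over all genes tested, 22.8% were higher and 17.0% lower in Eed, and 12.3% and 9.58% in Rnf2. The sum of visceral endoderm markers over 28 genes was 367 to 1528 CPM in Eed, 585 to 927 in Rnf2 and 288 to 539 in the wild type. Without Apoe, a lipid carrier, the sum was 75.7 to 162, 68.8 to 109 and 30.6 to 94.0. With that sum as a term, the direct comparison called 1536 genes. Epiblast markers summed to 519 to 1074, 695 to 1066 and 813 to 1308 CPM, and 0 of 4 differed between Eed and Rnf2.

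Parietal endoderm markers were higher in Eed for 4 of 8 tested and in Rnf2 for 0, against 9.31% and 4.78% of all genes tested. Against the wild type, 3 of 8 were higher and 1 lower in Eed, with a median log2 difference of -0.01. Over all genes tested, 22.8% were higher and 17.0% lower in Eed, and 12.3% and 9.58% in Rnf2. In Rnf2, 0 of 7 of the parietal markers were higher than the wild type and 2 lower, with a median of -0.21. Their sum over 12 genes was 313 to 712 CPM in Eed, 356 to 434 in Rnf2 and 427 to 575 in the wild type, so the groups overlapped. The collagen genes Col4a1 and Col4a2, which overlap in the table, stood at 28.8 ± 7.91 and 28.0 ± 10.8 CPM in Eed and 9.18 ± 4.46 and 9.41 ± 3.20 in Rnf2. In the wild type Col4a2 stood at 6.33 to 13.7 CPM. Plat, a plasminogen activator, stood at 10.1 to 21.3 CPM in Eed females, 0 to 8.21 in Eed males and 0 to 0.487 in Rnf2. Lamb1, a laminin, stood at 44.3 ± 13.9 CPM in Eed, 20.7 ± 5.86 in Rnf2 and 40.9 ± 21.1 in the wild type. Of this list, 4 of 9 were higher in Eed and 1 in Rnf2 among females alone, against 1234 and 1044 of all 11121 genes. Among males alone they were 1 and 0 of 8, against 70 and 24 of 9987. Without Rnf2 embryos 2, 5 and 6 they were 0 and 0 of 9, against 103 and 31 of 11439.

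Wnt4, a signalling protein listed as a marker of the maternal decidua (chromosome 4, 137277635 to 137299501), stood at 21.0 to 91.8 CPM in Eed, 7.44, 18.2, 7.04, 9.88 and 7.72 in Rnf2 and 0 in all 7 wild-type libraries. The 3 groups did not overlap (log2 2.14, SE 0.37, edgeR adjusted p 0.00136). The call was lost in males alone (edgeR adjusted p 0.109) and without Rnf2 embryos 2, 5 and 6 (edgeR adjusted p 0.139). Over a floor of 3 reads in a wild-type library it was at least 47.0-fold higher in Eed and at least 9.69-fold higher in Rnf2. The 23 decidual markers summed to 34.2 to 103.6 CPM in Eed, 11.4 to 24.3 in Rnf2 and 3.93 to 11.8 in the wild type, and 8, 14 and 17 of them were at 0. This sum includes Wnt4 itself. Of the 23, 20, 21 and 22 had a mean under 1 CPM in these groups, and only 2 were tested between Eed and Rnf2.

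Of 6 mesendoderm markers tested, 1 was higher in Eed and 1 in Rnf2, against 9.31% and 4.78% of all genes tested. Their median log2 difference was -0.23. The one higher in Rnf2 was Eomes, given above. Wnt3, a signal of the primitive streak, was higher in Eed, at 6.48 ± 4.26 CPM in Eed, 0.996 ± 0.800 in Rnf2 and 0.145 ± 0.263 in the wild type. The call of Wnt3 was lost in males alone (edgeR adjusted p 0.210). Against the wild type, 1 of 4 tested was higher and 3 were lower in each targeted group. Over all genes tested, 22.8% were higher and 17.0% lower in Eed, and 12.3% and 9.58% in Rnf2. The sum of the 13 mesendoderm markers was 21.5 to 127 CPM in Eed, 39.9 to 137 in Rnf2 and 109 to 205 in the wild type.

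Genes of the Polycomb complexes differed at single members. Of 9 PRC2 genes tested, Ezh1 and Phf19 were higher in Eed, and Rbbp4 and Eed itself in Rnf2. Over all genes tested, 9.31% were higher in Eed and 4.78% in Rnf2. Ezh1, the paralog of the methyltransferase Ezh2, stood at 11.7 to 43.8 CPM in Eed, 10.7, 7.99, 5.41, 10.6 and 8.29 in Rnf2 and 5.00 to 14.1 in the wild type. Eed and Rnf2 did not overlap (log2 1.50, SE 0.24, edgeR adjusted p 0.000559), and the call was lost in males alone (edgeR adjusted p 0.0669). Phf19, which helps PRC2 to bind chromatin, stood at 56.5 ± 17.1 CPM in Eed, 32.1 ± 7.91 in Rnf2 and 20.1 ± 9.31 in the wild type, and the histone chaperone Rbbp4 at 116 ± 21.8 CPM in Eed, 143 ± 10.5 in Rnf2 and 113 ± 23.3 in the wild type. The call of Phf19 was lost without any 1 of Rnf2 embryos 5, 6 and 7, and that of Rbbp4 without any 1 of Rnf2 embryos 2 and 6. Jarid2 and Mtf2, cofactors of PRC2, and the core subunit Suz12 were lower than the wild type in both. Jarid2 stood at 49.4 ± 11.7 CPM in Eed, 45.5 ± 7.27 in Rnf2 and 96.7 ± 18.7 in the wild type. In Rnf2 the call of Suz12 was lost without any 1 of Rnf2 embryos 2, 4 and 7 or any 1 of wild-type embryos 3, 4 and 7.

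Of 21 PRC1 genes tested, Pcgf5 was higher in Eed, and E2f6 and Pcgf6 of the variant complex at germline genes were higher in Rnf2. These 3 of 21 are near the share over all genes tested, 14.1% called in either direction. Pcgf6 stood at 129.7 to 199.5 CPM in Eed, 228, 205, 235, 239 and 214 in Rnf2 and 195 to 273 in the wild type, so Eed and Rnf2 did not overlap (log2 -0.51, SE 0.12, edgeR adjusted p 0.0081). The call of Pcgf6 was lost in males alone (edgeR adjusted p 0.197) and without Rnf2 embryos 2, 5 and 6 (0.274). E2f6 stood at 12.3 ± 3.25 CPM in Eed, 18.8 ± 2.35 in Rnf2 and 13.8 ± 3.70 in the wild type, and Pcgf5 at 326 ± 114 CPM in Eed, 189.8 ± 14.2 in Rnf2 and 167 ± 32.0 in the wild type. The call of Pcgf5 was lost without any 1 of Rnf2 embryos 4, 5, 6 and 7, and that of E2f6 without any 1 of Rnf2 embryos 6 and 7. Cbx8, which reads the mark of PRC2, was shared at 28.8 ± 9.18 CPM in Eed, 32.0 ± 9.12 in Rnf2 and 10.3 ± 5.10 in the wild type, as was its partner Bmi1 at 19.6 ± 6.64 CPM in Eed, 19.2 ± 6.12 in Rnf2 and 8.46 ± 2.30 in the wild type.

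Allelic ratios differed between Eed and Rnf2 at few genes. The maternal share is the percentage of a gene's assigned reads from the BDF1 mother. In all groups compared, maternal reads were the BDF1 ones and paternal reads the CAST ones. For genes outside the imprinted list, a shift by parent and a shift by strain thus cannot be told apart. Of 10293 genes tested, 10 (0.0972%) moved toward the maternal allele in Eed relative to Rnf2 and 16 (0.155%) toward the paternal allele. Against the wild type, 109 of 8959 (1.22%) gained maternal share and 128 (1.43%) lost it in Eed, and 41 of 9002 (0.455%) and 42 (0.467%) in Rnf2. Of 59 imprinted genes tested between Eed and Rnf2 4 differed, all noncanonically imprinted and all with a larger share of the silent maternal allele in Eed. They were Sfmbt2, Platr4, Jade1 and Gab1, among 10 noncanonical genes tested. Relative to the wild type, 9 of the 10 moved toward the silent allele in Eed and 5 in Rnf2.

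Sfmbt2, a Polycomb-related gene needed in trophoblast (chromosome 2, 10370437 to 10595253), had a maternal share of 22.1% to 43.4% in Eed, 7.00%, 8.00%, 3.42%, 4.01% and 1.99% in Rnf2 and 0% to 0.199% in the wild type. The 3 groups did not overlap. The log2 ratio of maternal to paternal reads was higher in Eed by 3.13 (95% interval 2.61 to 3.65, edgeR adjusted p 7.37e-08), and it passed in each of 25 alternatives. Its maternal reads stood at 0.209 CPM in the wild type, 20.3 in Rnf2 and 274 in Eed, and its paternal reads at 438, 383 and 587. In total it stood at 861 ± 187 CPM in Eed, 403 ± 56.9 in Rnf2 and 438 ± 88.2 in the wild type (log2 1.00, edgeR adjusted p 0.000559). Gm13261, 5.28 kb from Sfmbt2 on chromosome 2 and chosen after its values were seen, had a maternal share of 21.2% ± 10.9 in Eed, 2.99% ± 3.06 in Rnf2 and 0.275% ± 0.727 in the wild type.

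Jade1, a subunit of a histone acetyltransferase complex (chromosome 3, 41555734 to 41616864), had a maternal share of 17.6% to 53.5% in Eed, 7.08%, 18.9%, 4.72%, 5.50% and 12.8% in Rnf2 and 3.66% to 8.75% in the wild type. In 9 of 10 Eed embryos it was above all Rnf2 embryos (log2 2.04, 95% interval 1.29 to 2.79, edgeR adjusted p 0.00856). Platr4, a noncoding RNA 62.5 kb away, had 25.4% to 57.1% in Eed, 9.88%, 21.8%, 12.5%, 16.2% and 14.9% in Rnf2 and 4.44% to 19.15% in the wild type, with no overlap between Eed and Rnf2 (log2 1.83, edgeR adjusted p 0.00388). Gab1, an adaptor of growth factor receptors (chromosome 8, 80764431 to 80880519), had 15.1% to 59.2% in Eed, 15.3%, 17.6%, 13.5%, 10.7% and 5.85% in Rnf2 and 2.04% to 10.9% in the wild type. In 8 of 10 Eed embryos it was above all Rnf2 embryos (log2 1.70, edgeR adjusted p 0.0488). Without Rnf2 embryos 2, 5 and 6, the adjusted p in edgeR was 0.595 for Jade1, 0.272 for Platr4 and 0.377 for Gab1. Gab1 lost its call in 16 of 25 alternatives, among them those without any 1 of Rnf2 embryos 2, 4, 5, 6 and 7 or any 1 of Eed embryos 2, 5, 6, 8 and 10.

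The other noncanonical genes did not pass between Eed and Rnf2. Smoc1, a secreted matrix protein, had a maternal share of 22.5% to 63.6% in Eed, 27.2%, 38.8%, 16.7%, 4.58% and 14.4% in Rnf2 and 0% to 5.26% in the wild type (log2 1.37, 95% interval 0.42 to 2.33, edgeR adjusted p 0.357). Slc38a4, an amino acid transporter, had 0% to 38.2% in Eed and 0% to 14.0% in Rnf2. Slc38a1, another such transporter chosen after its values were seen, had 51.3% ± 3.81 in Eed, 50.4% ± 4.68 in Rnf2 and 26.1% ± 10.5 in the wild type (log2 0.04, 95% interval -0.24 to 0.33).

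In the Kcnq1 domain on chromosome 7, 0 of 13 genes tested by edgeR passed between Eed and Rnf2. Against the wild type, 7 of 10 moved toward the silent paternal allele in Eed and 5 of 10 in Rnf2. Over all genes tested, 1.43% and 0.467% moved toward the paternal allele. Ascl2, a trophoblast transcription factor (142966822 to 143008033), had a maternal share of 56.3% to 94.8% in Eed, 70.4%, 67.0%, 64.2%, 62.9% and 63.7% in Rnf2 and 97.6% to 100% in the wild type. Both targeted groups lay below the wild type and overlapped each other (log2 0.28, 95% interval -0.38 to 0.94). Paternal reads of Ascl2 stood at 0.192 CPM in the wild type, 78.9 in Eed and 97.7 in Rnf2. Cd81, a tetraspanin gene that overlaps R74862, had 74.0% ± 11.3 in Eed, 77.2% ± 10.4 in Rnf2 and 97.6% ± 2.82 in the wild type (log2 -0.18, 95% interval -0.94 to 0.58). Tssc4 had 74.5% ± 11.3, 67.7% ± 6.66 and 95.8% ± 3.86 (log2 0.52, 95% interval -0.17 to 1.21). These intervals leave room for differences between Eed and Rnf2.

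Nearer the centre of the domain, Phlda2, which limits placental growth (chromosome 7, 143501545 to 143503145), had a maternal share of 75.4% ± 6.98 in Eed, 73.4% ± 6.21 in Rnf2 and 97.7% ± 2.22 in the wild type (log2 0.15, 95% interval -0.29 to 0.59). Slc22a18, a transporter gene, had 80.1% ± 9.96, 72.4% ± 10.1 and 97.0% ± 3.67 (log2 0.61, 95% interval -0.16 to 1.37). Cdkn1c, a cell cycle inhibitor, had 93.0% ± 5.05, 94.2% ± 4.92 and 99.5% ± 0.904 (log2 -0.64, 95% interval -1.60 to 0.33). Kcnq1ot1, the paternal noncoding RNA that silences the domain, had 0% to 53.3% in Eed and 21.4%, 13.3%, 0%, 40.5% and 0% in Rnf2, too wide a spread to compare (95% interval -1.71 to 1.85). In total level Cdkn1c stood at 333 ± 202 CPM in Eed, 149 ± 40.1 in Rnf2 and 40.2 ± 12.6 in the wild type, and Cd81 at 255 ± 77.6 CPM in Eed, 106 ± 27.8 in Rnf2 and 72.9 ± 19.07 in the wild type, the second of these higher in Eed than in Rnf2 (edgeR adjusted p 0.00391).

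The silent-allele share of a library, which is the median over listed genes of the silent allele's percentage, was set out with no test. Its genes were chosen for a silent allele at or under 30% in both wild-type crosses. In the Kcnq1 domain it was 5.30% to 35.6% in Eed, 25.3%, 23.2%, 18.4%, 37.3% and 34.8% in Rnf2 and 0% to 3.74% in the wild type, so Eed and Rnf2 overlapped. Within each of the targeted groups every female lay above every male, at 32.5% to 35.6% in Eed females, 5.30% to 25.6% in Eed males, 34.8% to 37.3% in Rnf2 females and 18.4% to 25.3% in Rnf2 males. In noncanonical genes it was 22.5% to 48.1% in Eed, 11.98%, 21.8%, 12.8%, 14.0% and 14.3% in Rnf2 and 3.66% to 5.61% in the wild type, and no 2 groups overlapped. In other canonical genes it was 10.8% ± 4.58 in Eed, 9.79% ± 3.93 in Rnf2 and 1.93% ± 1.73 in the wild type.

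**Figure D5:**
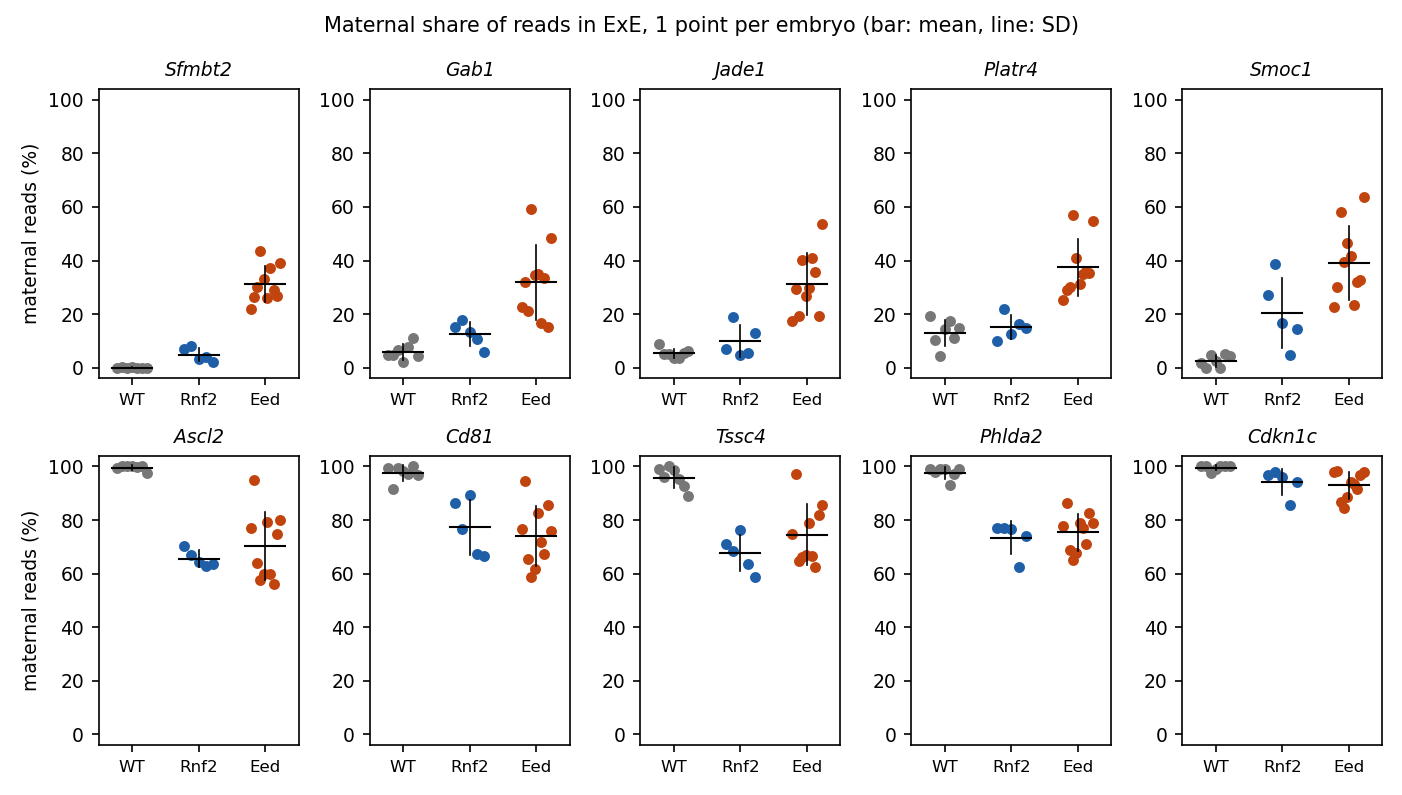
The y axis is the maternal share of reads in percent, each point is 1 embryo, bars are group means and lines are SDs. For Sfmbt2 and Platr4 the Eed points lie above all Rnf2 points, and for Ascl2 both targeted groups lie below the wild type and overlap each other.

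Genes outside the imprinted list also differed, and for these parent and strain cannot be told apart. Rgs17, a regulator of G protein signalling, had a maternal share of 35.4% to 57.3% in Eed and 20.2%, 21.1%, 18.2%, 16.7% and 20.7% in Rnf2 (log2 1.89, edgeR adjusted p 0.00128), and its total was 50.6 ± 9.15 CPM in Eed, 6.74 ± 3.50 in Rnf2 and 2.87 ± 0.749 in the wild type. Stk31, a germline kinase gene, had 27.0% to 44.9% in Eed, 55.7%, 62.7%, 70.2%, 61.2% and 47.5% in Rnf2 and 25.5% to 53.2% in the wild type (log2 -1.30, edgeR adjusted p 0.00821). The calls of Rgs17 and Stk31 were lost without Rnf2 embryos 2, 5 and 6 (edgeR adjusted p 0.0961 and 0.459).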

How the data were processed

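Per the file headers and notes, the authors deposited for each gene and library the count of reads over BDF1 and CAST polymorphisms, both alleles summed, without normalization. They also deposited, per the file headers and notes, a rounded ratio (the fraction of CAST reads less 0.5) and a score, the -log10 of a binomial p-value with a sign for the favoured allele, which is 0 where fewer than 10 reads were counted. STAR 2.5.0, HTSeq and mm10 are named in the submitters' processing notes. SMART-Seq cDNA was made into Nextera libraries, per the labels. Strand use was not given in the sources used here, so overlapping genes can share reads.

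Counts of each allele were recovered from ratio and score. Of 258380 scored values, 258362 (99.993%) matched within 0.002, and 1378 at the score's limit, with 7.58% of reads, were set by the rounded ratio. Of 30546 genes, 29557 were autosomal. Expression was tested with edgeR 4.0.16 in R 4.3.3 (quasi-likelihood, TMM, filterByExpr), and allelic ratio with edgeR on maternal and paternal counts with a term for each library, for genes that reached 10 reads in 3 or more libraries of both groups. Tests were two-sided with Benjamini-Hochberg adjustment over all autosomal genes tested. In simulated counts expression calls recovered 68% of genes changed by log2 1 and 100% of those changed by log2 2, beside 10 calls of unchanged genes (10137 genes), and allelic calls 72% and 99%, beside 20 (10293 genes), between Eed and Rnf2, with 100 genes changed by each amount. The simulated counts had the same spread for every gene, set in advance, and no difference between the sexes. Changed genes were drawn from those above a minimum count. Recovery and false calls at the spread of the real embryos were thus not measured. No 2 libraries of a group agreed within sampling noise.

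The members and gene lists were chosen with earlier results of these data known. Named genes were the targeted genes, up to 10 in each direction with the largest direct difference, a mean of 5 CPM or more in the higher group and no overlap, up to 4 of each list per direction and up to 4 shared, up to 8 called imprinted genes, up to 5 others per direction in allelic ratio, and 12 imprinted genes always given. Some genes that this rule selects are not reported here. Alternatives were DESeq2 1.42.0 and its size factors, no filter, limma 3.58.1, sex, visceral endoderm level or embryo number as a term, all 3 groups in 1 fit, equal depth, and fits without single embryos or without Rnf2 embryos 2, 5 and 6. Fits within each sex, the marker level without Apoe and the recounts of shared genes were chosen after seeing the data. So were the test of Eed females against Eed males and the test of whether the sex difference differed between Eed and Rnf2.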

Additional observations from a re-analysis of the deposited data

Results flagged for a closer look

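In 282 groups of named values tested for 1 embryo that stood apart from the rest of its group, 29 did, and chance gives about 14, or 1 in 20. The explanation of each was not tested.

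In total level, the Rnf2 embryos that stood apart were Eed 90.61 CPM in Rnf2 embryo 4 (others 153 to 169), Crxos 21.05 CPM in Rnf2 embryo 4 (others 11.4 to 13.9), Mzb1 16.61 CPM in Rnf2 embryo 2 (others 6.14 to 8.66), Wt1 7.641 CPM in Rnf2 embryo 2 (others 3.41 to 4.33), Tuba3b 42.22 CPM in Rnf2 embryo 5 (others 4.79 to 12.2), Tnfrsf10b 43.84 CPM in Rnf2 embryo 5 (others 28.3 to 30.7), Pth1r 14.32 CPM in Rnf2 embryo 4 (others 44.9 to 56.4) and Wnt4 18.22 CPM in Rnf2 embryo 4 (others 7.04 to 9.88). The Eed embryos were Pcgf5 601.4 CPM in Eed embryo 8 (others 196 to 382), Bmi1 35.77 CPM in Eed embryo 9 (others 11.9 to 23.1), Rpl10l 219.1 CPM in Eed embryo 4 (others 71.9 to 124), Tdrkh 5.689 CPM in Eed embryo 10 (others 16.5 to 22.4) and Peg10 212 CPM in Eed embryo 4 (others 38.7 to 118). The wild-type embryos were Crxos 12.29 CPM in wild type embryo 4 (others 1.72 to 4.33), Rbbp4 159.7 CPM in wild type embryo 6 (others 95.8 to 121), Pcgf6 273.4 CPM in wild type embryo 6 (others 195 to 227), Irx2 146.1 CPM in wild type embryo 6 (others 32.0 to 73.4), T 60.38 CPM in wild type embryo 8 (others 16.1 to 35.0), Sycp1 27.87 CPM in wild type embryo 8 (others 8.19 to 15.5), Bmp8b 381.8 CPM in wild type embryo 6 (others 191 to 268), Slc16a1 447.8 CPM in wild type embryo 6 (others 277 to 330.4), Kdr 14.29 CPM in wild type embryo 8 (others 4.30 to 8.56) and Col4a2 13.67 CPM in wild type embryo 6 (others 6.33 to 9.17).

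In maternal share, those that stood apart were Ascl2 97.62% in wild type embryo 8 (others 99.6 to 100), Cd81 91.77% in wild type embryo 2 (others 96.9 to 100), Phlda2 62.53% in Rnf2 embryo 6 (others 74.0 to 77), Phlda2 93% in wild type embryo 6 (others 97.0 to 99.0), Kcnq1ot1 8.824% in wild type embryo 7 (others 0 to 0) and Slc38a4 13.99% in Rnf2 embryo 6 (others 0 to 4.00).

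EU599041 was the single gene of 10374 whose sex difference itself differed between Eed and Rnf2 (edgeR, log2 -1.66, adjusted p 0.0360), and 769 genes had an unadjusted p under 0.05. It stood at 40.5 to 57.7 CPM in Eed females, 57.7 to 105 in Eed males, 66.4 to 75.0 in Rnf2 females and 36.3 to 40.3 in Rnf2 males.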

How the results depend on the processing

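Of 145 named results, 44 kept their direction and their side of the threshold in every alternative run, and 99 were weaker or reversed in at least 1. The fits within a sex or without some embryos held fewer embryos, and for the other changes given here the cause was not tested. The direct comparison of expression (1462 calls) gave 2278 in females, 94 in males, 134 without Rnf2 embryos 2, 5 and 6 and 917 to 1845 without single embryos, lowest without Rnf2 embryo 6. Eed against the wild type (3865) gave 2544 with the visceral endoderm level without Apoe as a term, 1868 in males and 3397 to 4259 without single embryos. Rnf2 against the wild type (2013) gave 193 and 1134 with that level as a term, with and without Apoe, 118 in females, 485 without Rnf2 embryos 2, 5 and 6 and 1442 to 2129 without single embryos. The allelic calls between Eed and Rnf2 (26) were 15 in females, 5 in males, 6 with limma, 17 at equal depth, 7 without Rnf2 embryos 2, 5 and 6 and 17 to 31 without single embryos, lowest without Rnf2 embryo 6. Those of Eed against the wild type (237) were 127 in females, 75 in males, 150 with limma and 174 to 270 without single embryos. Those of Rnf2 against the wild type (83) were 8 in females, 52 in males, 15 with limma, 55 at equal depth, 29 without Rnf2 embryos 2, 5 and 6 and 50 to 87 without single embryos, lowest without Rnf2 embryo 4. In the direct comparison of expression DESeq2 called 1985 genes, and the fit at equal depth called 1038 of 9218 tested. The 1283 shared genes became 98 and 633 with the visceral endoderm level, 71 in females, 676 in males, 409 without Rnf2 embryos 2, 5 and 6, 365 with the replicate block and 996 to 1320 without single embryos.

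With embryo number as a replicate block the calls were 1173, 3251 and 517 for expression, in the same order of comparisons, and 23, 166 and 26 for allelic ratio. The labels do not say whether same-numbered embryos of different groups shared more than a number. Of 5 such pairs between Eed and Rnf2, 2 had deviations correlated above 0.1 and 2 matched best with their own number.

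Some differences changed sign. Apoe against the wild type became -0.13 in Eed and -0.0902 in Rnf2 with a marker level that includes it. In allelic ratio Ascl2 became -0.24 and Phlda2 -0.0238 in females, Cd81 0.14 without Rnf2 embryos 2, 5 and 6, and Kcnq1ot1 -1.31 in males, -0.18 with sex as a term and -0.0793 at equal depth. Without single embryos Cd81 ranged from -0.39 to 0.0804, Phlda2 from -0.0385 to 0.24 and Kcnq1ot1 from -0.48 to 0.78. The silent-allele share in pooled reads was 24.6% for noncanonical genes in Eed and 3.29% in the wild type, 4.19% for other canonical genes in the wild type and 2.37% for all genes. In the wild type it was 1.71% for all genes with 50 reads or more and 2.75% for noncanonical genes chosen at or under 10%. At this depth most Hox genes and 36 of 73 germline genes did not pass the filter on low counts.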

Other observations

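Among 4 tested markers of the epiblast, 1 rose and 2 fell against the wild type in both targeted groups, and none was called between Eed and Rnf2 (edgeR). Over all genes tested, 22.8% were higher and 17.0% lower than the wild type in Eed, and 12.3% and 9.58% in Rnf2. Utf1, a chromatin factor of pluripotent cells, rose, at 412 ± 91.7 CPM in Eed, 449 ± 83.7 in Rnf2 and 191 ± 71.7 in the wild type (edgeR adjusted p 0.000294 and 0.00144). Dnmt3b, a DNA methyltransferase, fell, at 269 ± 94.0 CPM in Eed, 339 ± 68.9 in Rnf2 and 752 ± 179 in the wild type (edgeR adjusted p 2.90e-06 and 0.000217). L1td1, an RNA-binding protein of pluripotent cells, fell too, at 48.0 ± 25.1 CPM in Eed, 44.8 ± 9.24 in Rnf2 and 79.6 ± 13.04 in the wild type (edgeR adjusted p 0.00308 and 0.00103).

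The allelic ratio also differed between Eed and Rnf2 at Rwdd3, with a maternal share of 28.4% ± 11.2 in Eed and 59.1% ± 8.18 in Rnf2, and at Tex19.2, a germline gene, with 74.1% ± 17.8 and 35.3% ± 11.9 (edgeR adjusted p 0.00857 and 0.0488). The call of Tex19.2 was lost without any 1 of Rnf2 embryos 2, 4, 5, 6 and 7 or any 1 of Eed embryos 1, 2, 3, 4, 7, 9 and 10. 2400006E01Rik, 27.3 kb from Jade1 and chosen after its values were seen, had 14.8% ± 8.96 in Eed, 3.02% ± 0.670 in Rnf2 and 2.15% ± 1.22 in the wild type (edgeR adjusted p 0.00474 between Eed and Rnf2).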
